A study of Mus musculus with 10 samples.

Results

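The genes described here encode the proteasome: the catalytic core, the regulatory particles that cap it, their activators and inhibitor, and the chaperones that assemble them. Members were taken by symbol, as every gene in the table of all genes named Psm, followed by a letter from a to g and a number, with pseudogenes left out. This gave 48 of 35275 genes, of which 46 passed the filter for testing (5 or more of the 10 libraries with an FPKM of 1 or more) among 11414 genes tested. The exceptions were Psma8, a testis form of an alpha subunit, at 0.0341 to 0.175 FPKM, and Psmb11, the catalytic subunit of thymic cortical epithelium, listed at 0 in each of the 10 libraries. FPKM, the unit used here, corrects fragments for gene length and for library depth, so levels of different genes are compared per length.

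Mammary glands of BALB/c mice, an inbred strain, on day 3 of lactation were compared after an injection through the teat canal. In the 4th gland pair one side was given 50 µL of lipopolysaccharide (LPS, the endotoxin of Gram-negative bacteria, here from E. coli 055:B5) at 0.4 mg/mL and the other side sterile phosphate-buffered saline (PBS), and whole glands were taken 12 h later. The study sequenced RNA of 5 LPS and 5 PBS glands, to a depth of 15734303 to 18869545 counted reads. The labels give n = 9 for the injections and do not say which animals gave these 10 glands, so the p-values measure the spread between these libraries. If n = 9 counts all animals, some of the 10 glands came from the same animal. The unpaired tests below take all 10 as independent. A PBS gland lay in an animal whose other gland had received LPS, and no untouched gland was analysed here.

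The 26S proteasome destroys proteins tagged with ubiquitin. Its 20S core is a barrel of stacked rings: outer rings of alpha subunits, which gate the entrance, and inner rings of beta subunits, of which Psmb5, Psmb6 and Psmb7 cut the chain. The 19S cap recognises ubiquitin, removes it and feeds the unfolded protein into the core with a ring of ATPases. Cells of the immune system, and other cells exposed to interferon, build an immunoproteasome in which Psmb8 takes the place of Psmb5, Psmb9 that of Psmb6 and Psmb10 that of Psmb7, and its peptides are known as a source for display on MHC class I molecules. In the lactating gland most RNA comes from the secretory epithelium, and LPS draws in neutrophils.

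Promoter sequence shows which short control elements lie near the start of the genes compared below, so 4 stretches are given for constitutive and interferon-linked members. They are from RefSeq (GRCm38.p6), whose windows reach from 250 bases before to 50 bases after a gene's start and were found for 40 of the 48 members. Each is written 5′ to 3′ on the gene's strand with the match in capitals, and positions are counted from the RefSeq start, with -1 the last base before it. Psmb5 and Psmb6 each hold the antioxidant response element core TGACNNNGC, the letters read by NFE2L1, a known activator of proteasome genes, at -47 to -39 and at -9 to -1.
Psmb5 (chr14:54618023-54618115): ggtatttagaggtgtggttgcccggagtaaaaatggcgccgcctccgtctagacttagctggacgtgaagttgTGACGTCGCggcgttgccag
Psmb6 (chr11:70525257-70525356): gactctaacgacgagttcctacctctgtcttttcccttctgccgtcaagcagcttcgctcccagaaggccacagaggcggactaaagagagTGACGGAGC
Psmb8, the immune counterpart of Psmb5, holds the core TTCNNNGAA of a GAS element, bound by STAT factors after interferon gamma, at -97 to -89. Psme1, a subunit of the interferon-inducible activator, holds the interferon response element core GAAANNGAAA on the opposite strand at 10 to 19.
Psmb8 (chr17:34198088-34198117): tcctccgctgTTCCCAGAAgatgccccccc
Psme1 (chr14:55578493-55578522): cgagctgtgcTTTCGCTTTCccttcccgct
In the authors' coordinates the Psmb8 and Psme1 matches lie inside the gene, since the genes start upstream of the RefSeq start used here. Searched on both strands, the antioxidant core was found in 6 of the 40 member genes (15.0%), against 14.0% of 27025 genes with a window. The GAS core was found in 3 members (7.5%, against 9.55%) and the NF-kB core GGGANNNNCC in 9 (22.5%, against 22.9%). The interferon core was found in 5 (12.5%, against 3.99%), which were Psmb3, Psmd4, Psmd9, Psme1 and Psmg4. Besides Psmb5 and Psmb6, the antioxidant core lay in Psmc6, Psmd9, Psmd12 and Psme4, none of which was called in the test below. Psmb9, Psmb10 and Psme2 held none of these cores in their windows, and Psmb7 had no window. The cores thus do not divide constitutive from immune members. Such letter matches describe sequence only; binding was not measured.

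In LPS glands 13 of the 46 tested members rose and none fell at an adjusted p below 0.05 (limma on log2(FPKM + 1), Benjamini-Hochberg over the 11414 genes). That is 28.3% of the members tested, where 3.23% of all genes tested were called in either direction and 2.63% were called higher. With unadjusted p below 0.05, 37 members were higher and 0 lower; edgeR and DESeq2 on the recovered reads also called 0 members lower. The changes were modest in size: the median log2 change was 0.40 over the members, against 0.05 over all genes tested, and 44 of 46 members had a positive change, where 61.4% of all genes did. Values of the 5 LPS libraries lay above all 5 PBS libraries for 17 members, and for 3.53% of all genes tested.

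The count of 13 moved with single libraries. It was 3 (6.52% of members) without PBS library 1, PBS library 4 or LPS library 2. It was 4 (8.7%) without PBS library 5 or LPS library 3. Calls over all genes fell too: in the same order these fits called 129, 121, 123, 178 and 164 genes higher (1.06 to 1.56%). With all libraries 300 genes (2.63%) were called higher. At unadjusted p below 0.05 (limma), 34, 38, 35, 34 and 35 members were higher in these fits. Psma6, Psmb7 and Psmd14 were called in each of the 10 fits that left out 1 library. The authors' deposited table lists 28 members, all higher, where it lists 2.64% of the 23059 genes above 0 as higher. Those 28 were also the ones called by DESeq2 on the recovered reads (2.63% of genes called higher), and edgeR called 16 (2.41%). When FPKM was rescaled to the sum outside the milk protein genes, the median of all genes moved from 0.05 to -0.13, 26.9% of all calls were higher in place of 81.3%, and 5 members remained called: Psma1, Psma6, Psmb4, Psmb7 and Psmd14. The members' median change above that of all genes was 0.35 as deposited and 0.33 after this rescaling.

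**Figure D1:**
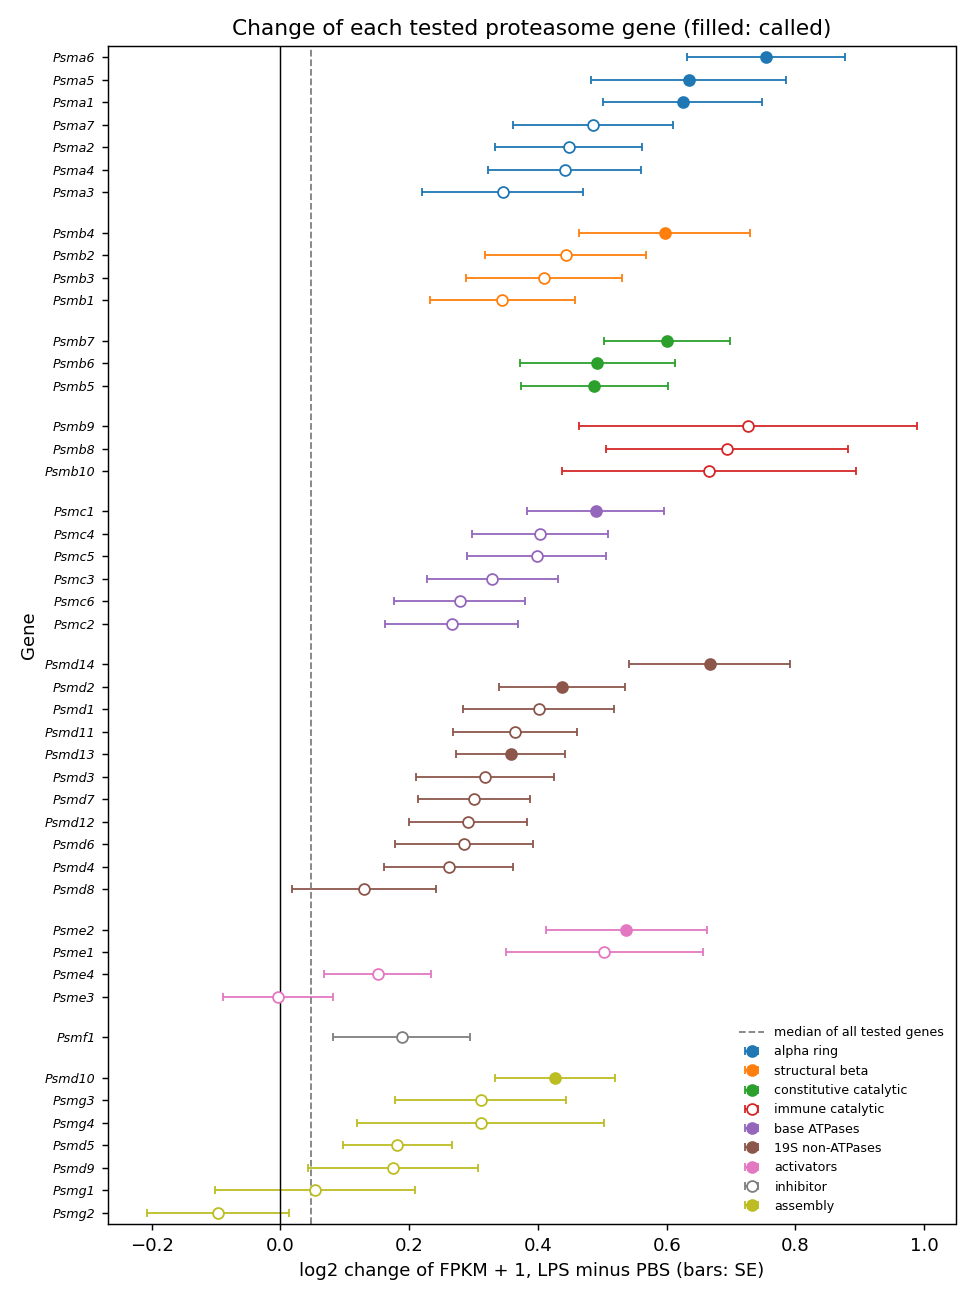
Log2 change of FPKM + 1, LPS minus PBS (x axis, bars are SE), for the 46 tested proteasome genes (y axis), grouped and coloured by class, with filled points for called genes. The 13 filled points lie to the right of the dashed line at 0.05, the median of all tested genes, and the assembly chaperone Psmg2 lies lowest at -0.10.

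A few libraries held most of the extreme values. LPS library 3 held the highest value of 21 of the 46 tested members and LPS library 2 that of 15, while PBS library 5 held the lowest of 26 and PBS library 1 of 19. Relative to the PBS mean, the median member stood at 1.35, 1.44, 1.46, 1.25 and 1.11 in LPS libraries 1 to 5 and at 0.922, 1.08, 1.09, 1.03 and 0.882 in PBS libraries 1 to 5. LPS library 5 thus lay nearest to the PBS libraries. In bulk tissue fewer cells of a type and less RNA per cell cannot be told apart, and this holds for each value below.

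**Figure D2:**
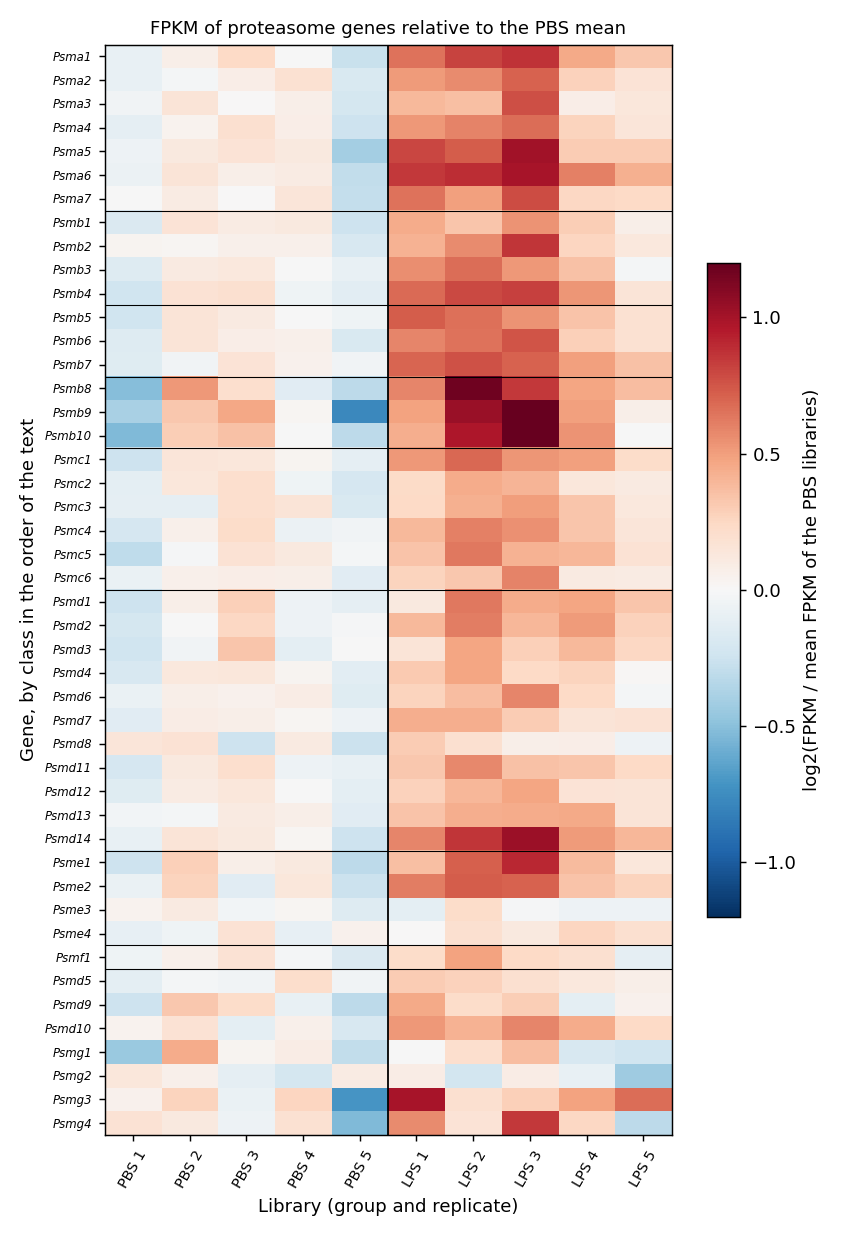
Colour gives log2 of FPKM over the mean FPKM of the 5 PBS libraries for each tested proteasome gene (rows, by class) in each library (columns). LPS libraries 1 to 3 are the darkest red across the core subunits, LPS library 5 is the palest of the LPS libraries, and 2 values exceed the colour scale's end of 1.2.

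In the alpha ring, which gates the core, Psma1, Psma5 and Psma6 rose, the other 4 tested were at log2 changes of 0.35 (Psma3, the lowest) to 0.49, and the median of the 7 was 0.49. Psma6 was at 107, 124, 117, 119 and 91.3 FPKM in PBS libraries 1 to 5 and at 201, 207, 222, 170.2 and 149.8 FPKM in LPS libraries 1 to 5. All 5 LPS libraries were above the highest PBS library, and the mean went from 112 ± 13.1 to 190.0 ± 29.4 FPKM (SD, n = 5 per group; log2 change 0.75, SE 0.12, adjusted p = 0.00814), the largest change of any member in this fit. Psma6 (ENSMUSG00000021024, chr12:55384222-55418454, plus strand) is a protein-coding gene, as are all members given with coordinates here, which are the authors' on mm10. Psma1 was at 75.7, 84.9, 95.4, 80.2 and 67.1 FPKM in PBS libraries 1 to 5 and at 127, 141, 148, 110.3 and 101 FPKM in LPS libraries 1 to 5. Psma5 was at 55.3, 62.8, 64.7, 62.4 and 43.5 FPKM in PBS libraries 1 to 5 and at 101, 95.5, 116, 71.5 and 71.2 FPKM in LPS libraries 1 to 5. For both, the LPS libraries again did not overlap the PBS libraries. The mean of Psma1 went from 80.7 ± 10.5 to 125 ± 19.8 FPKM (log2 change 0.62, SE 0.12, adjusted p = 0.0188), and that of Psma5 from 57.8 ± 8.72 to 90.9 ± 19.4 FPKM (log2 change 0.63, SE 0.15, adjusted p = 0.0434). Psma7, the most abundant member in PBS glands, was at 129 ± 14.3 FPKM there and 183 ± 31.0 in LPS glands, and also did not overlap, with an adjusted p of 0.0563.

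Among the structural beta subunits, which complete the inner ring without cutting, 1 of 4 rose. Psmb4 was at 62.5, 82.8, 84.1, 70.8 and 67.4 FPKM in PBS libraries 1 to 5 and at 117, 127, 129, 106 and 81.9 FPKM in LPS libraries 1 to 5. The lowest LPS library, library 5, lay inside the PBS range, and the mean of Psmb4 went from 73.5 ± 9.56 to 112 ± 19.4 FPKM (log2 change 0.60, SE 0.13, adjusted p = 0.0308). Psmb1 had the smallest log2 change of this class, 0.34 (adjusted p = 0.128), and Psmb2 and Psmb3 lay at 0.44 and 0.41.

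All 3 constitutive catalytic subunits rose, without overlap between the groups. Psmb5 was at 40.8, 53.4, 51.7, 47.9 and 46.5 FPKM in PBS libraries 1 to 5 and at 79.2, 75.8, 69.9, 60.9 and 54.6 FPKM in LPS libraries 1 to 5. This subunit gives the core its chymotrypsin-like activity; its gene (ENSMUSG00000022193, chr14:54614120-54617995, minus strand) is the one whose upstream stretch is shown above. The mean went from 48.0 ± 4.92 to 68.1 ± 10.2 FPKM (log2 change 0.49, SE 0.11, adjusted p = 0.0394). Psmb6 was at 62.1, 76.8, 73.1, 72.1 and 60.7 FPKM in PBS libraries 1 to 5 and at 104, 108, 117, 83.9 and 78.4 FPKM in LPS libraries 1 to 5. Psmb6 (ENSMUSG00000018286, chr11:70525367-70527858, plus strand), the caspase-like subunit, had means of 69.0 ± 7.11 in PBS and 98.1 ± 16.3 FPKM in LPS glands (log2 change 0.49, SE 0.12, adjusted p = 0.0465). Psmb7 was at 62.6, 67.2, 77.5, 71.7 and 67.2 FPKM in PBS libraries 1 to 5 and at 112, 118, 113, 97.5 and 88.4 FPKM in LPS libraries 1 to 5. Psmb7 (ENSMUSG00000026750, chr2:38588036-38644087, minus strand), the trypsin-like subunit, had means of 69.2 ± 5.64 in PBS and 106 ± 12.4 FPKM in LPS glands (log2 change 0.60, SE 0.10, adjusted p = 0.00817). Psmb7 alone of the 3 was called in all 10 fits that left out 1 library; Psmb5 was called in 4 and Psmb6 in 3, with adjusted p up to 0.115 and 0.131. After rescaling outside the milk proteins, Psmb5 and Psmb6 had adjusted p of 0.0795 and 0.0986.

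The 3 immune catalytic subunits had larger mean changes than their constitutive counterparts and a wider spread. None was called in the main limma fit, with FPKM as deposited and all libraries unpaired and of equal weight. All 3 had unadjusted p below 0.05 in it (limma, from 0.00284 to 0.0167). Psmb8 was at 9.40, 19.2, 15.4, 12.2 and 10.8 FPKM in PBS libraries 1 to 5 and at 20.1, 30.1, 24.1, 18.6 and 17.3 FPKM in LPS libraries 1 to 5. PBS library 2 lay above LPS libraries 4 and 5, and 3 of 5 LPS libraries were above the highest PBS library. Psmb8 (ENSMUSG00000024338, chr17:34197721-34201454, plus strand) had means of 13.4 ± 3.94 in PBS and 22.04 ± 5.19 FPKM in LPS glands (log2 change 0.69, SE 0.19, adjusted p = 0.0685). Psmb9 was at 5.45, 8.90, 9.86, 7.25 and 4.18 FPKM in PBS libraries 1 to 5 and at 9.94, 14.6, 21.97, 10.04 and 7.49 FPKM in LPS libraries 1 to 5. Its highest library was LPS 3 and its lowest PBS 5, with LPS library 5 inside the PBS range. Psmb9 (ENSMUSG00000096727, chr17:34181988-34187764, minus strand) had means of 7.13 ± 2.35 in PBS and 12.8 ± 5.73 FPKM in LPS glands (log2 change 0.73, SE 0.26, adjusted p = 0.175). Psmb10 was at 14.8, 26.2, 27.3, 21.4 and 17.2 FPKM in PBS libraries 1 to 5 and at 29.0, 41.8, 53.3, 31.1 and 21.3 FPKM in LPS libraries 1 to 5. LPS library 3 was again the highest, and LPS library 5 lay at the PBS mean. Psmb10 (ENSMUSG00000031897, chr8:105935728-105938392, minus strand) had means of 21.4 ± 5.45 in PBS and 35.3 ± 12.4 FPKM in LPS glands (log2 change 0.67, SE 0.23, adjusted p = 0.15).

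The call for the immune subunits depended on the model and on whether libraries of one replicate number were taken as pairs, which the labels do not settle. The authors' deposited table lists all 3 as higher, with adjusted p of 0.00163 for Psmb8, 0.0229 for Psmb9 and 0.0163 for Psmb10. DESeq2 on the recovered reads called all 3, edgeR called Psmb8 alone (adjusted p = 0.0302), and limma after median-of-ratios scaling also called Psmb8 (adjusted p = 0.0364). Without PBS library 2, unpaired limma called Psmb8 as well (adjusted p = 0.0263). With library weights, unpaired limma called 1 of the 3 (smallest adjusted p = 0.0242). In the annotation Psmb9 overlaps the start of Tap1 on the other strand, and Psmb8 overlaps an antisense gene; the labels do not state whether strand was kept, so reads of such partners cannot be told apart.

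**Figure D3:**
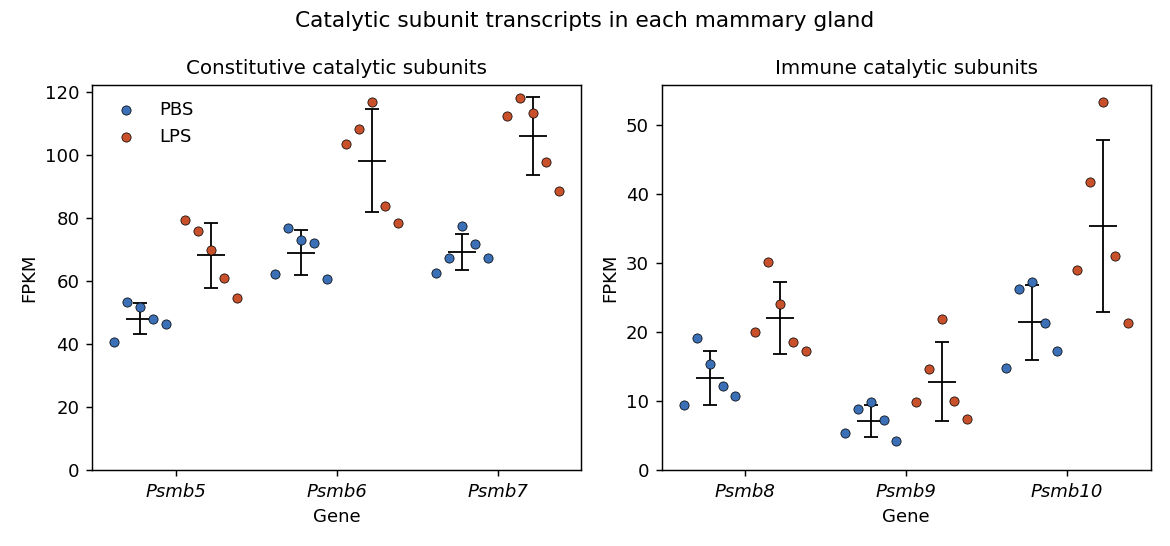
FPKM (y axis, from 0) of the constitutive subunits (left) and the immune subunits (right) in each PBS (blue) and LPS (orange) library, in replicate order from left to right, with the mean and SD in black. The LPS points of Psmb5, Psmb6 and Psmb7 lie above every PBS point, while those of Psmb8, Psmb9 and Psmb10 overlap the PBS points.

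Whether the immune form gained on the constitutive form was asked within each library, where scaling cancels. The Psmb8 to Psmb5 ratio of FPKM was 0.231, 0.360, 0.298, 0.254 and 0.232 in PBS libraries 1 to 5 and 0.253, 0.398, 0.345, 0.305 and 0.317 in LPS libraries 1 to 5. It averaged 0.275 ± 0.0548 and 0.324 ± 0.053 (SD, n = 5 per group), a difference of 0.24 in log2 ratio (SE 0.16; two-sided exact permutation p = 0.19, adjusted over the 3 ratios 0.393). The groups overlapped, with PBS library 2 above 4 of the 5 LPS libraries. The Psmb9 to Psmb6 ratio was 0.0877, 0.116, 0.135, 0.101 and 0.0688 in PBS libraries 1 to 5 and 0.0961, 0.135, 0.188, 0.120 and 0.0955 in LPS libraries 1 to 5. Its log2 difference was 0.31 (SE 0.25; exact permutation p = 0.262, adjusted 0.393). The Psmb10 to Psmb7 ratio was 0.237, 0.390, 0.353, 0.298 and 0.256 in PBS libraries 1 to 5 and 0.259, 0.355, 0.471, 0.319 and 0.241 in LPS libraries 1 to 5. Its log2 difference was 0.08 (SE 0.22; exact permutation p = 0.714, adjusted 0.714), and it was -0.057 without LPS library 3 and -0.003 without PBS library 1. Dividing 10 libraries into groups of 5 allows a p as small as 0.00794, so these tests could have passed the threshold. These tests treat the glands as unpaired, and in them a gain of the immune form of this size was within the spread between glands.

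**Figure D4:**
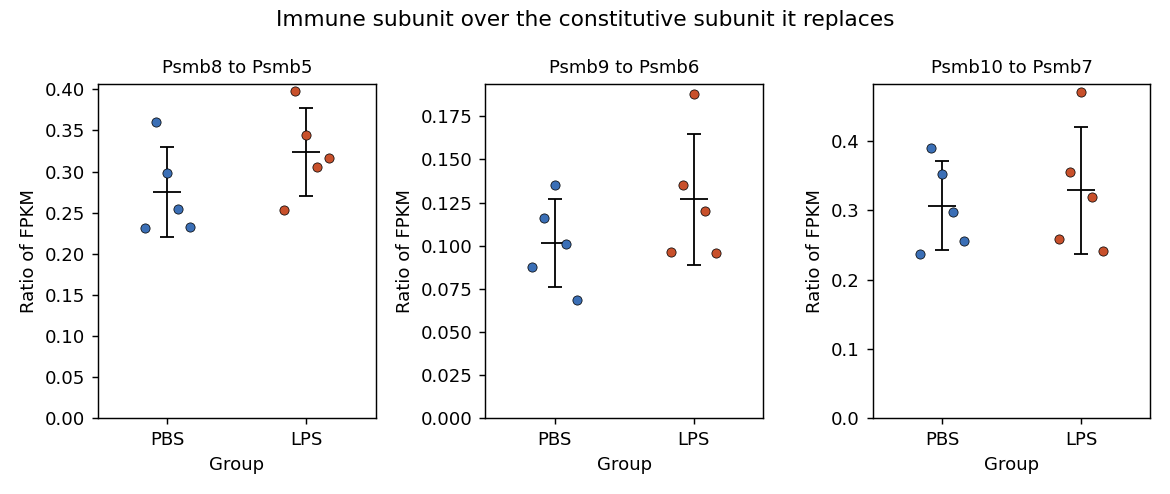
Ratio of FPKM (y axis, from 0) of each immune subunit to the constitutive subunit it replaces, per library (points, in replicate order) with mean and SD (black), for PBS and LPS glands. In each of the 3 panels the groups overlap, and the means of Psmb8 to Psmb5 are 0.275 and 0.324.

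Summed over the 3 subunits, immune FPKM was 29.7, 54.3, 52.6, 40.8 and 32.2 in PBS libraries 1 to 5 and 59.0, 86.5, 99.4, 59.7 and 46.1 in LPS libraries 1 to 5, and constitutive FPKM was 166, 197, 202, 192 and 174 in PBS libraries 1 to 5 and 295, 302, 299.7, 242 and 221 in LPS libraries 1 to 5. The means stood 1.67-fold and 1.46-fold higher in LPS glands. The immune subunits thus made up 15.2 to 21.6% of the FPKM of the 6 catalytic genes in PBS libraries and 16.7 to 24.9% in LPS libraries, with means of 18.1% ± 2.9 and 20.2% ± 3.46. By FPKM, the constitutive form predominated at the RNA level in each of the 10 libraries. These shares, and the levels of the ratios above, depend on the authors' gene lengths. Those were 871, 966 and 1160 bases for Psmb5, Psmb6 and Psmb7, and 1907, 2884 and 1270 bases for Psmb8, Psmb9 and Psmb10. Whether they match the transcripts made in the gland was not tested.

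Immune cells hold immune subunits without stimulation, so their markers were read in the same libraries. The summed FPKM of 5 markers of all leukocytes was 16.9 to 99.0 in PBS and 22.2 to 51.6 in LPS libraries, highest in PBS library 2 (99.0), PBS library 4 (52.8), LPS library 3 (51.6) and LPS library 2 (45.1), and 0 of the 5 were called (limma; none had an unadjusted p below 0.05). The same 4 libraries held the B cell markers, at 33.7, 15.1, 12.6 and 4.36 FPKM summed over 4 genes, against 0.163 to 0.409 in the other 6, where Cd79a was at 0 to 0.255 FPKM. Macrophage markers (5 genes) ran from 36.5 to 104.9 in PBS and 28.3 to 66.0 in LPS libraries, with 0 of 5 called (limma, 0 at unadjusted p below 0.05). Their median log2 change was -0.44, and the authors' deposited table lists 1 of them, Csf1r, as lower (adjusted p = 0.036). Dendritic cell markers (4 genes) summed to 1.23 to 4.00 and 1.03 to 2.31. T and NK cell markers (5 genes) summed to 0.867 to 16.6 and 0.887 to 7.77. The labelled tissue was seen in its own markers: 7 genes of the milk-making epithelium, with Csn2 and Wap the most abundant in PBS glands. These summed to 157627 to 202477 FPKM in PBS and 126900 to 170589 in LPS libraries. Of the 7, limma called 1, the keratin Krt8, which rose. At unadjusted p below 0.05 (limma) Krt18 was also higher, and Csn2 and Lalba were lower. Csn2 went from 56690 ± 7723 to 37160 ± 6647 FPKM with overlap (log2 change -0.62, SE 0.20, adjusted p = 0.134). Lalba had a log2 change of -0.34 and Krt18 of 0.32 (adjusted p = 0.279 and 0.113). The authors' deposited table lists Csn2 as lower (adjusted p = 0.00611) and Krt8 as higher (adjusted p = 0.00892).

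Of 7 neutrophil markers, 5 passed the filter and were called higher in LPS glands, while Ly6g and Mmp8 did not pass it. The authors' deposited table lists Mmp8 as higher (adjusted p = 0.000346) and does not list Ly6g. Cxcr2 passed through its LPS libraries, at 1.67 to 6.24 FPKM against 0.291 to 1.11 in PBS libraries. Its place among the 5 thus depended on its rise. The 7 markers summed to 703 to 1868 FPKM in PBS and 7365 to 14187 in LPS libraries. S100a8 and S100a9, which other cells can also make, supplied nearly all of this, while the defining marker Ly6g was at 0.221 ± 0.125 and 1.15 ± 0.78 FPKM. With the B and T cell marker level in the model, limma called 28 members (60.9%), and 5.21% of all genes tested were called higher. The 3 immune subunits were among the 28 (adjusted p 0.0158 to 0.0389). Without the 3 or 4 libraries richest in B cell markers limma called no member. Over all genes it then called 28 (0.245%) and 8 (0.0701%) higher. In these fits 33 and 22 members were higher at unadjusted p below 0.05, with median member changes of 0.40 and 0.33. With the neutrophil marker level in the model, limma called 0 genes and 0 members (127 genes higher and 39 lower at unadjusted p below 0.05, with 0 members among them). The median change in that fit was 0.22 over the members and 0.208 over all genes tested. The neutrophil marker level and LPS cannot be told apart. These 4 fits were chosen after the data were seen.

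Mean changes were smaller in the 19S cap than in the core. Summed over its 17 genes FPKM went from 870.5 ± 68.0 to 1107 ± 97.8 (1.27-fold), and over the 15 constitutive core genes from 1038 ± 100.2 to 1507 ± 231 (1.45-fold). The ratio of core to cap was 1.22, 1.22, 1.18, 1.23 and 1.11 in PBS libraries 1 to 5 and 1.46, 1.32, 1.52, 1.24 and 1.25 in LPS libraries 1 to 5, so that the lowest LPS value, 1.236, lay just above the highest PBS value, 1.232. This ratio is a description over chosen genes and was given no test.

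Psmd14 had the largest change within the cap. It encodes the deubiquitinase that cuts ubiquitin from the substrate at the pore. Psmd14 was at 27.4, 32.5, 31.6, 29.5 and 24.5 FPKM in PBS libraries 1 to 5 and at 43.7, 52.7, 59.4, 41.5 and 38.4 FPKM in LPS libraries 1 to 5. The groups did not overlap, and Psmd14 (ENSMUSG00000026914, chr2:61711694-61800376, plus strand) had means of 29.1 ± 3.23 in PBS and 47.1 ± 8.67 FPKM in LPS glands (log2 change 0.67, SE 0.12, adjusted p = 0.0157), with an adjusted p of at most 0.0486 when any 1 library was left out. Of the other 10 non-ATPases Psmd2 and Psmd13 rose, and the median of the 11 was 0.32. Psmd2 was at 51.5, 59.5, 70.7, 57.2 and 59.2 FPKM in PBS libraries 1 to 5 and at 77.9, 91.0, 78.7, 84.7 and 72.3 FPKM in LPS libraries 1 to 5. Psmd2, the scaffold that docks ubiquitin-binding shuttles, went from 59.6 ± 7.01 to 80.9 ± 7.15 FPKM (log2 change 0.44, SE 0.10, adjusted p = 0.0308). Psmd13 was at 32.3, 32.4, 35.6, 34.7 and 30.1 FPKM in PBS libraries 1 to 5 and at 41.8, 44.7, 45.0, 45.1 and 36.7 FPKM in LPS libraries 1 to 5. Psmd13, a lid subunit, went from 33.0 ± 2.17 to 42.7 ± 3.60 FPKM (log2 change 0.36, SE 0.08, adjusted p = 0.041). Neither Psmd2 nor Psmd13 overlapped between the groups, but edgeR called neither (adjusted p = 0.0579 and 0.0624), and Psmd13 was not called after median-of-ratios scaling (adjusted p = 0.0564). Psmd8, also in the lid, had the lowest change of the class at 0.13 (adjusted p = 0.642), and the ubiquitin receptor Psmd4 had 0.26 (adjusted p = 0.201).

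Of the 6 ATPases that unfold the substrate 1 was called. Psmc1 was at 60.6, 79.7, 79.4, 73.7 and 66.8 FPKM in PBS libraries 1 to 5 and at 103, 116, 104, 101 and 83.8 FPKM in LPS libraries 1 to 5. Psmc1 went from 72.0 ± 8.28 to 102 ± 11.5 FPKM without overlap (log2 change 0.49, SE 0.11, adjusted p = 0.0276). The others had log2 changes from 0.27 (Psmc2, adjusted p = 0.206) to 0.40 (Psmc4, adjusted p = 0.0609).

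Psme1 and Psme2 form the ring-shaped activator that interferon induces. Psme2 was at 88.3, 112, 85.0, 103 and 78.0 FPKM in PBS libraries 1 to 5 and at 143, 154, 152, 118 and 112 FPKM in LPS libraries 1 to 5. Only LPS library 5 fell inside the PBS range, just below PBS library 2. Psme2 (ENSMUSG00000079197, chr14:55587441-55591113, minus strand) had means of 93.3 ± 13.9 in PBS and 136 ± 19.6 FPKM in LPS glands (log2 change 0.54, SE 0.13, adjusted p = 0.038). Psme1 was at 24.2, 35.0, 30.2, 31.2 and 23.0 FPKM in PBS libraries 1 to 5 and at 36.8, 47.4, 53.6, 37.5 and 31.6 FPKM in LPS libraries 1 to 5. Psme1 (ENSMUSG00000022216, chr14:55578123-55581529, plus strand) overlapped between the groups through PBS library 2 and LPS library 5, and went from 28.7 ± 5.02 to 41.4 ± 8.91 FPKM (log2 change 0.50, SE 0.15, adjusted p = 0.1). The authors' deposited table lists both as higher, with adjusted p of 0.00303 for Psme1 and 0.000146 for Psme2. Psme2b, a near-identical copy of Psme2 that is not a member, was at 4.95 ± 1.70 and 6.97 ± 1.76 FPKM, and how the counting divided reads between them is not stated.

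The nuclear activator Psme3 was at 33.0 ± 2.25 in PBS and 33.0 ± 3.14 FPKM in LPS glands (log2 change -0.004, SE 0.09, adjusted p = 0.988; Psme3 values were 29.6 to 35.6 in PBS and 30.6 to 38.5 in LPS libraries). Psme4, another large activator, had a log2 change of 0.15 (adjusted p = 0.403). The inhibitor Psmf1 was at 7.69 ± 0.693 in PBS and 8.95 ± 1.30 FPKM in LPS glands (log2 change 0.19, SE 0.11, adjusted p = 0.416). Psme4 and Psmf1 turned slightly negative, to -0.06 and -0.01, after rescaling outside the milk proteins, as did 4 further members with small positive changes (Psmd5, Psmd8, Psmd9 and Psmg1). Psme3 and Psmg2, negative before, were then at -0.215 and -0.3. In that fit 38 of 46 members had a positive change. At unadjusted p below 0.05 (limma) 21 members were higher and 2 lower, where 462 of all genes tested were higher and 2356 lower.

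Of the 7 assembly chaperones 1 rose, and the median of the 7 was 0.18. Psmd10 was at 18.4, 20.2, 16.5, 18.7 and 15.7 FPKM in PBS libraries 1 to 5 and at 25.6, 23.8, 26.8, 24.4 and 21.1 FPKM in LPS libraries 1 to 5. Psmd10, a chaperone of the ATPase ring also known as gankyrin, went from 17.9 ± 1.79 to 24.4 ± 2.15 FPKM without overlap (log2 change 0.43, SE 0.09, adjusted p = 0.0285). Psmd5 and Psmd9, chaperones of the same ring, had log2 changes of 0.18 and 0.17 (adjusted p = 0.311 and 0.578). The alpha ring chaperones Psmg1 and Psmg2 had 0.05 and -0.10, the latter the lowest of all members (adjusted p = 0.744). Psmg3 and Psmg4, which act as a pair on the same ring, both had 0.31 (adjusted p = 0.255 and 0.468), and Psmg3 was the scarcest tested member at 0.651 to 2.12 FPKM, from 25 to 96 reads.

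Proteins that work with the proteasome but are no members were read for comparison. Of 19 such partners tested 1 rose: Pomp, the chaperone on which the inner rings assemble. Pomp was at 88.2, 111, 102, 102 and 85.6 FPKM in PBS libraries 1 to 5 and at 159.9, 168, 156, 126 and 121 FPKM in LPS libraries 1 to 5. The groups did not overlap, and Pomp went from 97.8 ± 10.6 to 146 ± 21.2 FPKM (log2 change 0.57, SE 0.12, adjusted p = 0.0197). Nfe2l1, which encodes the activator of proteasome genes named above, was at 47.0 ± 3.96 in PBS and 62.3 ± 9.90 FPKM in LPS glands (log2 change 0.39, SE 0.11, adjusted p = 0.0844). Other partners went the other way or stayed flat. Ddi2 had a log2 change of -0.24 (SE 0.11, limma unadjusted p = 0.0418, adjusted p = 0.274). Ngly1 had a log2 change of -0.01 (limma adjusted p = 0.98). A role of NFE2L1 was not tested. The median of the 19 partners was 0.15. None of 6 genes of ubiquitin and its activating enzymes was called (limma; none had an unadjusted p below 0.05), and their median was 0.08; Rps27a, the most abundant, had a log2 change of 0.20 (adjusted p = 0.613) and Ubb, a polyubiquitin gene, 0.01 (adjusted p = 0.98).

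The genes downstream of the immunoproteasome load its peptides onto MHC class I. Of these 12, the MHC gene H2-D1 rose from 217 ± 33.4 to 376 ± 73.8 FPKM without overlap (log2 change 0.78, SE 0.15, adjusted p = 0.0188), and the median of the 12 was 0.35. Tap1, the peptide transporter gene beside Psmb9, was at 24.1 ± 8.23 in PBS and 40.8 ± 12.0 FPKM in LPS glands (log2 change 0.74, SE 0.23, adjusted p = 0.111). H2-D1 was the only gene of the 12 called by limma. The authors' deposited table lists H2-D1 (adjusted p = 8.45e-05), H2-K1 (0.0147), Tap1 (0.0182) and Tap2 (0.0315) as higher. Of 13 tested genes of interferon control Irf7, an interferon-induced transcription factor, rose from 60.3 ± 12.2 to 126 ± 33.8 FPKM (log2 change 1.03, SE 0.20, adjusted p = 0.0181). Ifngr1, a receptor chain for interferon gamma, rose from 85.3 ± 6.99 to 116 ± 12.5 FPKM (log2 change 0.43, SE 0.10, adjusted p = 0.0308). Neither overlapped between the groups. Irf1 also did not overlap but was not called (limma, log2 change 0.53, SE 0.15, adjusted p = 0.0836). The authors' deposited table lists Irf7 (adjusted p = 8.04e-06) and Irf1 (adjusted p = 0.0083) as higher and does not list Ifngr1. Ifng itself was too low to test, at 0 in 5 libraries and at most 0.311 FPKM outside LPS library 3, which had 1.15. Ifnb1 was at 0 in 9 libraries.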

How the data were processed

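RNA of 10 mammary glands (5 LPS, 5 PBS) was analysed. Build mm10 and the tools STAR (2.5), HTSeq (0.6.1) and DESeq2 (stated as version 2) are named in the submitters' processing notes; their settings, the annotation and the strandedness are not given in the sources used here. FPKM of all genes are deposited in 1 table. A second table, of the 908 genes the authors called, holds per the file headers raw counts, a normalized signal per library, FPKM, log2 fold changes and adjusted p-values, all made by the authors.

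From FPKM, whole reads were recovered for 23059 of 23059 genes above 0 (tolerance 0.002 reads; lengths equal to the listed ones for 906 of 908 genes). Gene names were matched for 34490 of 35275 genes from a table of Ensembl names and for 3 from the authors' table.

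Genes at an FPKM of 1 or more in 5 or more libraries were tested with limma 3.58.1 (intensity trend, two-sided, R 4.3.3) on log2(FPKM + 1), which understates changes of low genes, with Benjamini-Hochberg adjustment over all 11414 genes and a call below 0.05. The ratios were compared by exact permutation of the libraries. Alternatives were DESeq2 1.42.0 and edgeR's quasi-likelihood test (4.0.16) on recovered reads, beside other pseudocounts, filters, scalings, library weights, a replicate block and fits without each library. The limma, edgeR and DESeq2 procedures were also run on simulated counts of independent libraries, with the same dispersion for every gene. That simulation held no shifts of cell mix and no shared animals, and did not cover the ratio tests. No conclusion is drawn from it here. Depth limits counting error only, since PCR copies cannot be told from molecules.

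The members, lists and motifs were chosen with earlier results of these data known. Values per library are given for the 6 catalytic subunits, Psme1, Psme2 and each called member, and of the others the highest and lowest change in each class. Of each outside list up to 4 called genes of largest change are named, or else the 2 of highest mean FPKM. Nfe2l1, Ddi2, Ngly1, Tap1, Tap2, H2-K1, Irf1, Ifng, Ifnb1, Krt18, Lalba, Csf1r, Mmp8, Cxcr2 and the members added to these were chosen after their values were seen. No protein sequences were used here.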

Additional observations from a re-analysis of the deposited data

Results flagged for a closer look

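In 3 members 1 library lay far from the other 4 of its group, by a gap of more than 0.71 of the group's range (Dixon's test at 5 samples, which chance passes in about 1 in 20 groups; both groups of all 46 tested members were read). Psmb2, a structural beta subunit, was lowest in PBS library 5 at 65.9 FPKM, where the other PBS libraries held 76.9 to 78.9. PBS library 5 was also the lowest of the 10 libraries for 26 of the 46 members. Psmd5, a chaperone of the ATPase ring, was highest among PBS libraries in library 4 at 13.77 FPKM, against 11.02 to 11.71 in the others. Psme3, the nuclear activator, was highest among LPS libraries in library 2 at 38.45 FPKM, against 30.6 to 32.7 in the others. None of the 3 genes was called by limma (adjusted p = 0.0807, 0.311 and 0.988).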

How the results depend on the processing

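The 13 member calls and the 300 higher and 69 lower calls over all genes stayed within 1.5 times under pseudocounts of 0.1 and 5 and a mean FPKM filter. Other settings moved the counts, given here as members, then all genes higher and lower. They were 3, 101 and 25 with no filter, 7, 233 and 145 after quantile normalization, and 5, 128 and 348 when scaled to the sum outside milk proteins. Library weights gave 20, 534 and 122, and DESeq2 gave 28, 607 and 296. All genes called lower were 115 with median-of-ratios scaling and 132 with edgeR, beside 13 and 16 members, of which 12 and 11 were among the 13 (median-of-ratios scaling lost Psmd13 and gained Psmb8). Higher calls were 81.3% of all calls as deposited, 68.8% with median-of-ratios scaling and 61.6% with quantile normalization. Leaving out 1 library gave 3 to 19 members, 121 to 429 genes higher and 27 to 88 lower. No member was called lower under any of these settings.

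Of the fits chosen after the data were seen, that without the 3 libraries of highest B cell marker level gave 0, 28 and 7, and that without 4 gave 0, 8 and 0 (limma; 240 genes lower at unadjusted p below 0.05). The B and T cell covariate gave 28, 595 and 119, and the neutrophil covariate 0, 0 and 0, where the log2 change of Psmb5 was -0.042.

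Under the replicate block limma called 31 members, the 3 immune subunits among them (adjusted p 0.00152 to 0.00458), with 962 genes higher and 267 lower. Deviations of libraries of one number correlated at 0.4815, 0.3624, 0.09929, 0.1034 and 0.4939 for numbers 1 to 5, and 5 of the 10 libraries correlated best with their own number. The labels do not say that a number marks 1 mouse, and for that reason the fit without the block was the main one. All 5 correlations were positive and were not used for this choice. Whether the numbers pair glands of 1 mouse is not known. The block left the ratio differences at 0.242, 0.311 and 0.083, with LPS above PBS in 5, 5 and 3 of the 5 numbers and exact sign-flip p of 0.0625, 0.0625 and 0.562, where 0.0625 is the smallest p that 5 pairs allow.

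The log2 ratio difference of Psmb8 to Psmb5 ran from 0.163 to 0.344 when 1 library was left out, that of Psmb9 to Psmb6 from 0.157 to 0.423 and that of Psmb10 to Psmb7 from -0.057 to 0.185. The last was -0.035 without the 4 libraries of highest B cell marker level. The summed immune to constitutive ratio differed by 0.089 to 0.274 in log2. The cause of these shifts was not tested. Depth limited Psmg3 most, with 25 to 96 reads.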
